A study of Mus musculus with 7 samples.

Results

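The 10 genes described here control whether a cell survives, dies by apoptosis or dies by necroptosis, and they were compared between immature and mature mouse bone marrow-derived dendritic cells (BMDCs). They were chosen by gene symbol as Bcl2, Bcl2l1, Mcl1, Bcl2l11, Pmaip1, Bax, Bak1, Ripk1, Ripk3 and Mlkl, which makes 10 of the 28666 genes in the deposited table. Each symbol had 1 row, and all 10 were among the 17461 genes that passed the filter on low counts and were tested. In mature cells, Pmaip1 rose 2.94-fold, whereas Bcl2 fell to 0.162 of its immature level, Ripk3 to 0.303 and Mlkl to 0.310. Mcl1, the most abundant of the 10 per unit of length, was 1.26-fold higher. Bax, alone among the 10, had overlapping values in the groups.

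Dendritic cells take up antigen in the immature state and present it to T cells once mature. Bulk RNA-seq covered immature BMDCs in 3 libraries and mature BMDCs in 4. Marrow of C57BL/6 mice aged 6 to 8 weeks was grown for 7 days with GM-CSF at 20 ng/mL and IL-4 at 10 ng/mL, and the cells were then kept in a Transwell chamber with MC38, a mouse colon carcinoma line. Both groups came from such co-cultures and were separated by flow sorting. By one account the sort followed 24 h with DON, a glutamine antagonist, and by another the co-cultures had vehicle (DMSO) or DON at 5 μM. The study also describes its DON co-cultures as given more glutamine than those with vehicle. The sample labels name the stage alone, so the treatment of a given library is not known here. The sources used here give no markers for this sort. Elsewhere in the study mature dendritic cells were defined by CD80 and CD86, whose genes are among the markers counted below. Whether this sort used them is not known here. The study's methods speak in general of independent biological experiments, but neither they nor the labels tie a library to a mouse or culture. P-values measure the spread between these libraries, whose biological and technical parts cannot be told apart.

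The proteins of the BCL-2 family meet at the outer mitochondrial membrane. BCL-2, BCL-XL (Bcl2l1) and MCL-1 hold the pore-forming effectors BAX and BAK in check, and BH3-only proteins such as BIM (Bcl2l11) and NOXA (Pmaip1) relieve that restraint, after which cytochrome c leaves the mitochondria and caspases are activated. Necroptosis is a lytic death without caspases, in which RIPK1 or another adaptor engages RIPK3, and RIPK3 phosphorylates MLKL, which breaks the plasma membrane. In dendritic cells BCL-2 and BIM are known as opposing regulators of lifespan.

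The 5′ flanks of the 3 genes that fell past the study's criteria are shown here to place these genes in the genome. Each is the 250 bases before the RefSeq start site on GRCm38.p6, written 5′ to 3′ on the minus strand on which all 3 genes lie. Capitals mark matches to any of 7 short motifs searched on both strands. The flanks are chr1:106714291-106714540 for Bcl2, chr14:55788858-55789107 for Ripk3 and chr8:111338206-111338455 for Mlkl.
Bcl2: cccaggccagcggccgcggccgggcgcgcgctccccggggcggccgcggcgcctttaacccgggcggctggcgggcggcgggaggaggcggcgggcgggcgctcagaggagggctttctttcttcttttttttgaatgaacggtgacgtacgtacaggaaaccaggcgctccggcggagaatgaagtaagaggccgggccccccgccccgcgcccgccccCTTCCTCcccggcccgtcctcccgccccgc
Ripk3: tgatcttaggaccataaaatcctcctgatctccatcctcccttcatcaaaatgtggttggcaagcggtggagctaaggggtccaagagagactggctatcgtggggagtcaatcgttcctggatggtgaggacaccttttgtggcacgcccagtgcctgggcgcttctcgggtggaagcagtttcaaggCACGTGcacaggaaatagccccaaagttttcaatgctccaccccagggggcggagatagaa
Mlkl: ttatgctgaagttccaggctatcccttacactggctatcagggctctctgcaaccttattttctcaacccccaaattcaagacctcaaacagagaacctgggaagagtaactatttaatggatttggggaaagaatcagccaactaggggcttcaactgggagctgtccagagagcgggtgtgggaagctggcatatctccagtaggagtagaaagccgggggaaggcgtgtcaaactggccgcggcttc

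In the 300 bases that also include 50 bases after the start, Bcl2 held 44 CpG dinucleotides and 76.0% G and C. Ripk3 held 10 CpG and 52.7% G and C, and Mlkl held 7 CpG and 51.0%. The medians over 32851 mouse promoters of this length were 7 CpG and 52.7%. Ripk3 and Mlkl were therefore near the middle of all promoters in base composition, and Bcl2 was not. The Bcl2 flank held the PU.1-type ETS motif GAGGAAG (read from the opposite strand, starting 30 bases before the start), which 13.6% of all promoters hold. Ripk3 held the E-box CACGTG starting 61 bases before the start (7.15% of promoters) and, after the start, the interferon-response letters GAAANNGA (21.0%). Mlkl held no match to these or to the GAS motif TTCNNNGAA (8.30%), the C/EBP motif TTGCNNAA (10.8%), the AP-1 motif TGANTCA (7.81%) or the kappa B motif (8.46%). None of the 9 members searched held a kappa B match. Pmaip1 was not searched. A match describes letters in a window and is no evidence of binding.

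Total counts were 54846746 to 67973086 per library, and the smallest count of a member in any library was 218, for Bcl2. Values are given as CPM, which scales counts to library size with TMM factors, unless FPKM is named, which also divides by gene length and is used to compare genes with each other. Mature replicate 3 stood apart from the other mature libraries, with a summed FPKM of 381707 against 327714 to 337706 in the other 6 libraries. Genes of cardiac muscle were high in mature replicates 2 to 4, with a sum of up to 818 CPM, against 26.9 CPM in mature replicate 1 and at most 5.52 CPM in the immature libraries. With mature replicate 1 as the sole mature library, the log2 fold change was -2.54 for Bcl2, -1.97 for Ripk3, -1.50 for Mlkl and 1.68 for Pmaip1. That fit has no spread among mature libraries. Macrophage markers were lower in mature cells for 10 of 10 genes (2540 to 2620 CPM summed in immature, 501 to 609 in mature), and markers of mature dendritic cells were higher for 9 of 10 (1980 to 2200 against 13600 to 17100 CPM). Of the dendritic cell markers, 3 of 10 were higher past the criteria given next and none was lower past them. By the adjusted p alone, 7 were higher and 1, Itgax, was lower (means of 1386 CPM in immature and 1041 CPM in mature libraries). Neutrophil markers summed to 12.8 to 16.2 CPM in immature and 19.7 to 27.9 CPM in mature libraries, mostly from Cxcr2 (means of 11.3 and 21.3 CPM). S100a8 fell from 1.81 to 0.722 CPM, and Mpo was at 0 in the immature libraries and at most 0.064 CPM in mature ones. Markers of B, T and NK cells summed to 0.988 to 1.17 CPM in immature and 1.3 to 1.55 CPM in mature libraries. Epithelial markers summed to 69.9 to 77.4 and 59.4 to 69.6 CPM, mostly from Cdh1 (55.2 and 51.5 CPM). Epcam rose from 0.268 to 1.28 CPM, but the median log2 fold change of the 5 tested was -0.53. Krt8 (9.3 and 6.3 CPM), Krt18 (3.0 and 2.1 CPM) and Krt19 (5.7 and 3.3 CPM) had lower means in mature libraries, with overlapping groups. The part of these shifts in the results on the members was not tested. In bulk RNA, fewer cells of a type and less RNA per cell cannot be told apart.

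The study's criteria ask for a difference of 1 or more on the log2 scale together with an adjusted p below 0.05, and in edgeR 4 of the 10 members met both. The same criteria were met by 23.1% of all genes tested. Pmaip1 was the member that rose, where 13.2% of genes did, and Bcl2, Ripk3 and Mlkl fell, where 9.95% of genes did. By the adjusted p alone, 9 of 10 members passed, against 46.1% of genes, and 7 of these were lower in mature cells, against 22.9% of genes. For 9 of 10 members the immature and mature values did not overlap, against 52.1% of genes. The median log2 fold change was -0.60 over the 10 members and 0.05 over all genes tested. The members were chosen with earlier results of these data known, so these comparisons with all genes are description only.

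**Figure D1:**
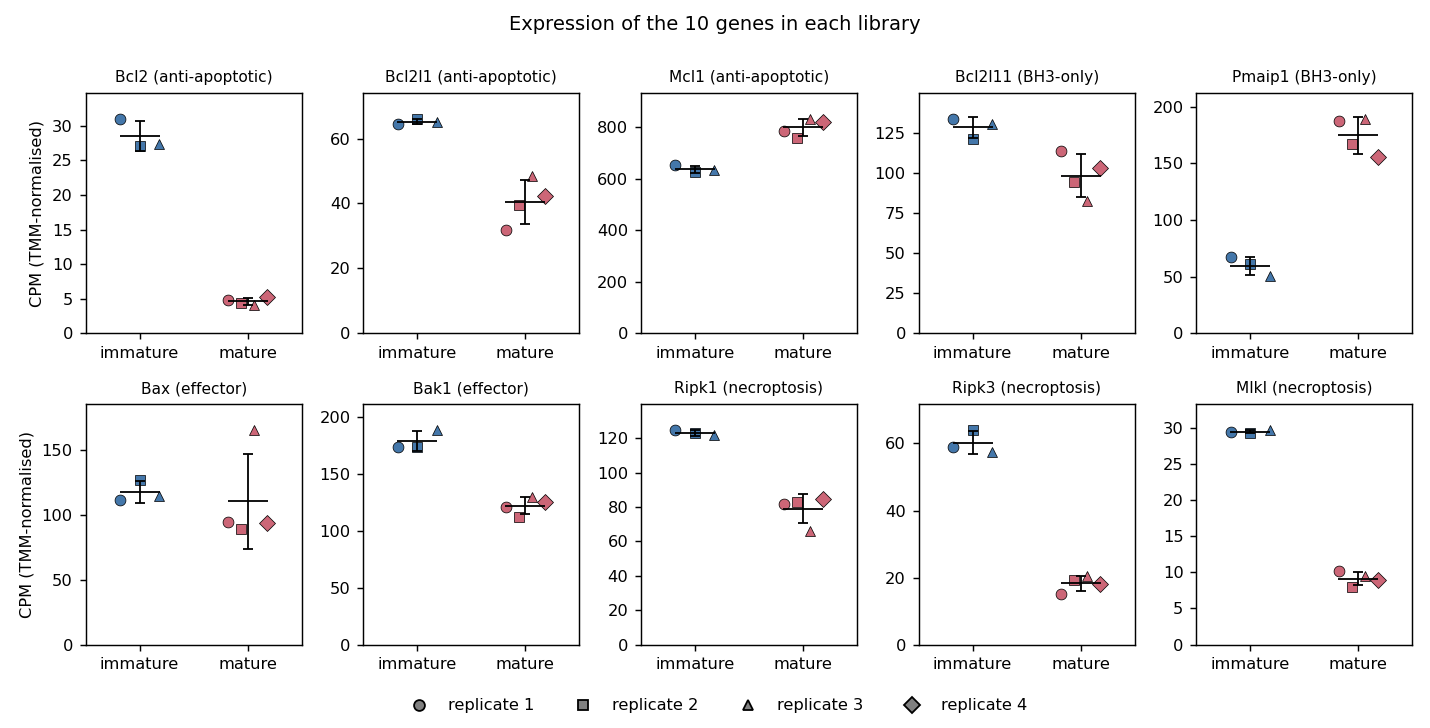
CPM of each of the 10 genes in every library, with a linear axis from 0 in each panel. Points are libraries, with the marker giving the replicate number, and the black line and bars give the mean and SD of 3 immature or 4 mature libraries. Bcl2, Ripk3 and Mlkl sit far lower in mature libraries, Pmaip1 sits higher, and for Bax mature replicate 3 lies at 165 CPM above every other library.

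Among the anti-apoptotic genes, Bcl2 (ENSMUSG00000057329, chromosome 1 from 106538178 to 106714274, minus strand) had the largest change of the 10. It was at 31.0, 27.2 and 27.4 CPM in immature replicates 1 to 3 and at 4.82, 4.38, 4.12 and 5.18 CPM in mature replicates 1 to 4. Every mature library was below every immature one by a wide margin. Immature libraries had a mean of 28.5 ± 2.18 CPM (SD, n = 3) and mature ones of 4.63 ± 0.468 CPM (SD, n = 4), which is a 6.16-fold fall. The log2 fold change was -2.62 (95% interval -2.89 to -2.35, standard error 0.12, adjusted p by edgeR = 7.15e-07). Only 1.24% of genes tested fell by more. A same-strand transcript inside the gene, Gm37053, had at most 1 count per library.

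Bcl2l1 (ENSMUSG00000007659, chromosome 2 from 152780668 to 152831728, minus strand) encodes BCL-XL, a close relative of BCL-2. Its immature values of 64.5, 66.1 and 65.0 CPM lay close together, and the mature ones were 32.0, 39.5, 48.4 and 42.3 CPM. All mature libraries were lower, with replicate 1 the lowest and replicate 3 the highest. The log2 fold change of -0.69 (standard error 0.13, adjusted p by edgeR = 0.0026) passed the adjusted p and not the fold criterion. With mature replicate 1 as the sole mature library both criteria were met.

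Mcl1 (ENSMUSG00000038612, chromosome 3 from 95658788 to 95663176, plus strand) encodes a short-lived protein that binds NOXA and BIM. It was at 652, 626 and 634 CPM in immature and at 787, 760, 833 and 820 CPM in mature libraries. Each mature library was above each immature one, by a modest margin. The log2 fold change was 0.33 (standard error 0.07, 95% interval 0.16 to 0.49, adjusted p by edgeR = 0.00603), under the fold criterion, and 36.9% of all genes tested rose by more.

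Within a library these genes differ greatly in level. Mcl1 had 164 ± 5.21 FPKM (SD, n = 3) in immature and 221 ± 5.79 FPKM (SD, n = 4) in mature cells, against 12.5 and 8.32 FPKM for Bcl2l1 and 2.73 and 0.480 FPKM for Bcl2. Mcl1 thus held 91.5% of the summed FPKM of these anti-apoptotic members in immature and 96.2% in mature cells. The share of Bcl2 was 1.47 to 1.63% in immature libraries and 0.178 to 0.227% in mature ones. The ratio of Mcl1 to Bcl2 was 60.1 ± 3.28 (SD, n = 3) and 466 ± 51.4 (SD, n = 4), and the ranges did not overlap. That separation follows from the opposite changes of these genes.

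Of the BH3-only members, Pmaip1 rose past both criteria and Bcl2l11 did not meet them. Pmaip1 (ENSMUSG00000024521, chromosome 18 from 66458533 to 66465565, plus strand) encodes NOXA, which binds MCL-1 with preference. It was at 67.1, 60.9 and 50.7 CPM in immature libraries and at 187, 168, 190 and 156 CPM in mature ones. All mature libraries stood well above all immature ones. The mean was 59.5 ± 8.27 CPM (SD, n = 3) in immature cells and, in mature cells, 175 ± 16.3 CPM (SD, n = 4), with a log2 fold change of 1.56 (standard error 0.12, 95% interval 1.28 to 1.83, adjusted p by edgeR = 1.38e-05). Of all genes tested, 11.2% rose by more.

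Bcl2l11 (ENSMUSG00000027381, chromosome 2 from 128126038 to 128162547, plus strand) encodes BIM, which binds all the anti-apoptotic members. Its values were 134, 121 and 130 CPM in immature and 114, 94.0, 82.3 and 103 CPM in mature libraries. The groups did not overlap, though immature replicate 2 and mature replicate 1 were only a few CPM apart. The log2 fold change was -0.39 (standard error 0.11, adjusted p by edgeR = 0.0222). The adjusted p was 0.0877 without immature replicate 1, 0.0740 without immature replicate 3 and 0.0619 without mature replicate 2. In these fits the log2 fold change was -0.36, -0.38 and -0.36, with larger standard errors of 0.14, 0.14 and 0.13. Without mature replicate 1 or 3, the adjusted p was 0.00974 and 0.00863, respectively. The adjusted p missed the threshold in 8 of 18 alternatives in all, among them the fit with mature replicate 1 as the sole mature library. It was 0.183 with limma on log2(FPKM + 1) without the filter.

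In FPKM, Pmaip1 made up 57.5 ± 3.63% of the sum of both BH3-only members in immature cells (SD, n = 3) and 83.9 ± 2.37% in mature cells (SD, n = 4). The ratio of Pmaip1 to Bcl2l11 was 1.14 to 1.48 in immature and 4.44 to 6.78 in mature libraries. Set against the anti-apoptotic partners, the ratio of Mcl1 to Pmaip1 had a mean of 8.67 in immature and 3.68 in mature libraries. The ratio of Bcl2l11 to Bcl2 was 4.92 to 5.44 and 22.6 to 26.8. For none of these ratios did the libraries of the groups overlap, which in part restates the changes of single genes given above. The ratio of Bcl2l11 to Bcl2 was higher although Bcl2l11 itself was lower, at means of 14.0 and 11.6 FPKM. They are ratios of transcripts per unit of length and say nothing of protein.

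**Figure D2:**
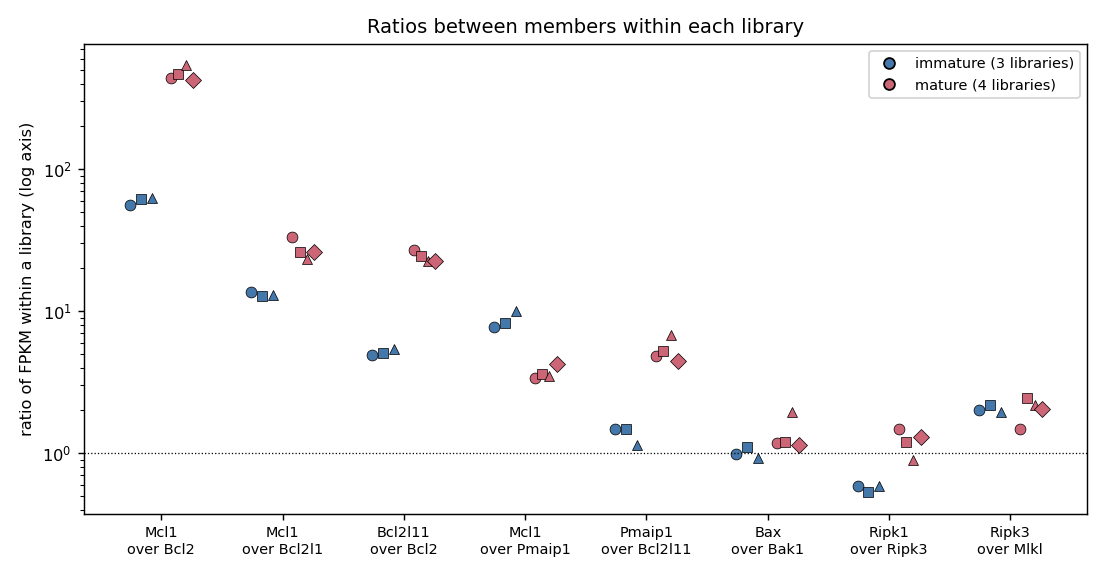
Ratio of FPKM between members within each library on a log axis, with immature libraries in blue and mature libraries in red and the marker giving the replicate number as in the plot of CPM. The ratio of Mcl1 to Bcl2 goes from a mean of 60.1 to 466, that of Pmaip1 to Bcl2l11 from 1.37 to 5.32, and that of Ripk3 to Mlkl is 2.05 and 2.04.

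The effectors BAX and BAK form the pore in the mitochondrial membrane. Bak1 (ENSMUSG00000057789, chromosome 17 from 27019810 to 27029009, minus strand) was at 174, 174 and 189 CPM in immature and 121, 112, 130 and 126 CPM in mature libraries, without overlap. Its log2 fold change was -0.55 (standard error 0.08, adjusted p by edgeR = 0.000553), short of the fold criterion. The opposite-strand genes Ggnbp1 and Gm50253, each sharing 9200 bases with Bak1, had at most 185 and 737 counts per library, and the strand setting of the counting is not given in the sources used here.

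Bax (ENSMUSG00000003873, chromosome 7 from 45461697 to 45466898, minus strand) was at 111, 127 and 114 CPM in immature libraries. Mature replicates 1, 2 and 4 were at 94.0, 88.6 and 93.6 CPM, below all immature libraries, while mature replicate 3 was at 165 CPM, above all of them. Over all libraries the log2 fold change was -0.09 (standard error 0.21, 95% interval -0.58 to 0.40, adjusted p by edgeR = 0.765), so that a difference as large as that of Bak1 lay within the interval. Without mature replicate 3 it was -0.33 (standard error 0.06, adjusted p by edgeR = 0.00129). With mature replicate 1 as the sole mature library it was -0.30, from a fit with no spread among mature libraries.

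In FPKM, Bax and Bak1 were alike in immature cells, at 65.5 ± 5.63 and 65.2 ± 1.65 (SD, n = 3), with overlapping ranges. The ratio of Bax to Bak1 was 0.923 to 1.11 in immature libraries. It was 1.14 to 1.20 in mature replicates 1, 2 and 4 and 1.95 in mature replicate 3. The ratio was therefore higher in all mature libraries, by a small margin in all but replicate 3.

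All 3 necroptosis genes were lower in mature cells, and the kinase gene Ripk3 and its substrate's gene Mlkl fell past both criteria. Ripk3 (ENSMUSG00000022221, chromosome 14 from 55784995 to 55788865, minus strand) was at 58.9, 64.0 and 57.5 CPM in immature and at 15.1, 19.2, 20.5 and 18.04 CPM in mature libraries. Its mean in immature cells was 60.2 ± 3.44 CPM (SD, n = 3). In mature cells it was 18.2 ± 2.29 CPM (SD, n = 4), a 3.30-fold fall. The log2 fold change was -1.72 (standard error 0.11, 95% interval -1.99 to -1.46, adjusted p by edgeR = 5.31e-06), and 4.75% of all genes tested fell by more.

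Mlkl (ENSMUSG00000012519, chromosome 8 from 111311797 to 111338177, minus strand) encodes the pseudokinase that carries out necroptosis. It was at 29.4, 29.3 and 29.7 CPM in immature libraries, the smallest SD of any member in that group (0.203 CPM), and at 10.2, 7.93, 9.42 and 8.92 CPM in mature ones. The fall was 3.23-fold, with a log2 fold change of -1.69 (standard error 0.11, 95% interval -1.94 to -1.45, adjusted p by edgeR = 4.02e-06), and 4.97% of genes fell by more. In FPKM, the ratio of Ripk3 to Mlkl was 2.05 ± 0.131 (SD, n = 3) in immature and 2.04 ± 0.404 (SD, n = 4) in mature cells. The mature libraries, at 1.48 to 2.44, spanned the immature range of 1.95 to 2.198.

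Ripk1 (ENSMUSG00000021408, chromosome 13 from 34002363 to 34033677, plus strand) encodes a kinase that acts in survival signalling as well as in both forms of death. Its values were 125, 123 and 122 CPM in immature and 81.8, 83.0, 66.4 and 84.9 CPM in mature libraries. All mature libraries were lower, with replicate 3 the lowest. The log2 fold change was -0.64 (standard error 0.10, adjusted p by edgeR = 0.000702), short of the fold criterion. Serpinb6a, on the opposite strand, shares 432 bases with Ripk1 and had 5221 to 8220 counts per library.

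Since Ripk3 fell by more than Ripk1 was lower, their order within a library turned in most mature libraries. The FPKM ratio of Ripk1 to Ripk3 was 0.529 to 0.583 in immature libraries and 1.49, 1.19, 0.891 and 1.30 in mature replicates 1 to 4. Mature replicate 3 was the exception to the turn, with Ripk3 still above Ripk1. The summed FPKM of the necroptosis members was 47.3 ± 2.33 (SD, n = 3) and 20.2 ± 1.27 (SD, n = 4).

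**Figure D3:**
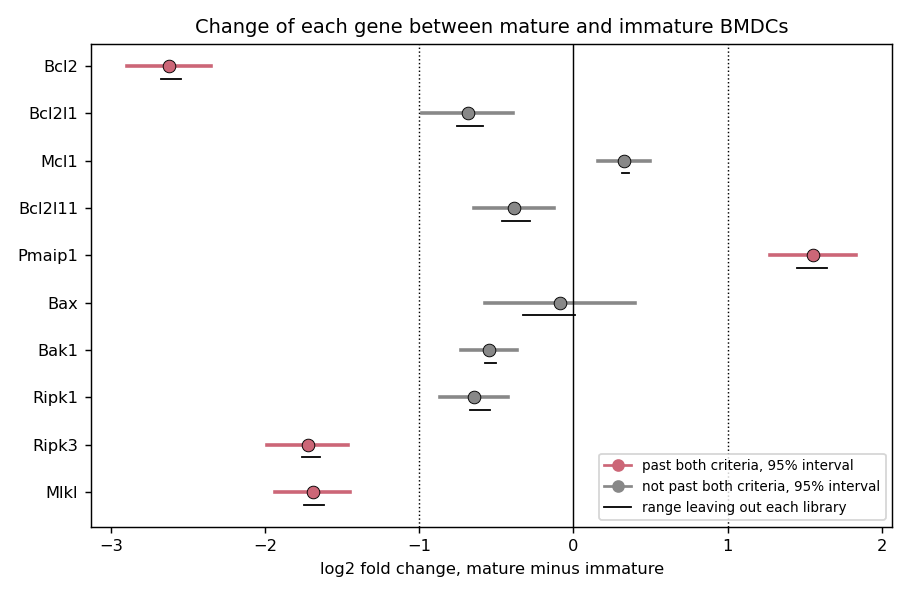
Log2 fold change of each gene, mature minus immature, from edgeR on 3 immature and 4 mature libraries, with its 95% interval as a coloured bar (red where both criteria were met, grey otherwise). The thin black line under each bar is the range when each library is left out in turn, and dotted lines mark the fold criterion at -1 and 1. Bcl2, Ripk3, Mlkl and Pmaip1 lie beyond the dotted lines, and the interval of Bax, -0.58 to 0.40, covers 0.

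Ordered by mean FPKM, immature cells had Mcl1, then Bax and Bak1, then Ripk3 and Pmaip1, followed by Bcl2l11, Ripk1 and Bcl2l1, Mlkl and Bcl2. Among neighbours in that order, Bax and Bak1, Ripk3 and Pmaip1, and Ripk1 and Bcl2l1 had overlapping libraries. In mature cells the order was Mcl1, Bax and Pmaip1, Bak1, then Bcl2l11, Ripk1, Bcl2l1 and Ripk3, then Mlkl and Bcl2. Here Bax overlapped with Pmaip1, Bcl2l11 with Ripk1, Ripk1 with Bcl2l1 and Bcl2l1 with Ripk3, while Ripk3 and Mlkl did not overlap. Mcl1 was first and Bcl2 last in both groups, while Pmaip1 moved up from 19.2 to 60.5 FPKM and Ripk3 moved down from 23.1 to 7.49 FPKM.

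The other genes of these pathways were counted from 6 lists of 71 genes, of which 66 were tested. Of these, 7 rose and 5 fell past the criteria, and the median log2 fold change was -0.02. Over all genes tested, 13.2% rose and 9.95% fell past the criteria, and each list below is to be read against these shares. By the adjusted p alone, 18 were higher and 19 lower, where 46.1% of all genes passed in either direction.

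On the list of other anti-apoptotic genes, 4 were tested. Of these, 1 rose and none fell past the criteria, and the median log2 fold change was 0.67. That median rests on the A1 genes, since the remaining tested gene, Bcl2l2, was at 0.04 (adjusted p by edgeR = 0.742). Bcl2l1, a member and so not on this list, was lower as Bcl2 was, at -0.69. The riser was Bcl2a1d, one of the A1 genes, whose products bind BH3-only proteins (140 ± 6.17 CPM in 3 immature and 335 ± 88.0 CPM in 4 mature libraries, SD, with a log2 fold change of 1.26). Its near-identical copies Bcl2a1a and Bcl2a1b had log2 fold changes of 0.64 and 0.70, and reads may be split among them. Summed, these copies had 552 to 634 CPM in immature libraries, 878 to 985 CPM in mature replicates 1, 2 and 4, and 1494 CPM in mature replicate 3. Over the 7 anti-apoptotic genes measured, they held 77.3 ± 1.58% of the summed FPKM in immature (SD, n = 3) and 83.2 ± 2.67% in mature cells (SD, n = 4), so that Mcl1 held 19.96% and 15.59%. Bcl2l10 was not analysed here.

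Of the other BH3-only genes, 4 of 6 were tested and 0 passed both criteria, with a median log2 fold change of 0.36. By the adjusted p alone, 2 were higher and 1 lower. Bmf, a BH3-only gene linked to the cytoskeleton, missed the fold criterion narrowly at 0.99 (adjusted p = 0.000186), and Bbc3, which encodes PUMA, was at 0.52 (adjusted p = 0.0114). The lower one was Bid, at -0.28 (adjusted p by edgeR = 0.0441), and Bad was at 0.21 (adjusted p by edgeR = 0.423). All of these are named outside the rule, after their values were seen. Bik and Hrk were under the filter. Among 6 tested atypical relatives, 1 rose and 0 fell, with a median of -0.16. That gene was Bcl2l14, which went from 2.22 to 13.0 CPM (log2 fold change 2.55, standard error 0.19).

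Among 27 genes of death receptors, the RIPK1 complex and the inputs to necroptosis, 4 rose and 3 fell, and the median was 0.03. The genes that rose included the ubiquitin ligases Birc2 (log2 fold change 2.01) and Birc3 (1.15), which encode cIAP1 and cIAP2 and modify RIPK1. On the same scale their adaptor Traf2 rose by 1.28, and Fas, a death receptor, by 1.45. The genes that fell included Tnfrsf1a, the TNF receptor upstream of RIPK1 (-1.28), and Tlr4, the receptor for lipopolysaccharide (-1.91). The remaining one, Tlr3 (-1.53), was at under 1 FPKM in both groups and is named here to complete the count.

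The apoptosome and caspase list had 14 tested genes, of which 0 rose and 1 fell, with a median of -0.08. Cycs, which encodes cytochrome c, went from 77.8 to 38.4 CPM with a log2 fold change of -1.02. That call was lost in 9 of 18 alternatives, in which the fold was just under the criterion, among them the fit without mature replicate 1 (-0.90). Among 11 tested regulators, 1 rose and 1 fell, with a median of -0.20. Foxo1, a transcription factor whose known targets include Bcl2l11, rose by 1.31 on the log2 scale, and Myc, a driver of growth, fell by 2.37. In the KEGG terms of the deposited annotation, consulted after the members' values were seen, 16 of 128 tested necroptosis genes rose and 17 fell, with a median of 0.04. For the apoptosis term, 15 of 127 rose and 14 fell, also with a median of 0.04. Among all genes tested, 13.2% rose and 9.95% fell past the same criteria. These terms hold 5 and 8 of the members, respectively.

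**Figure D4:**
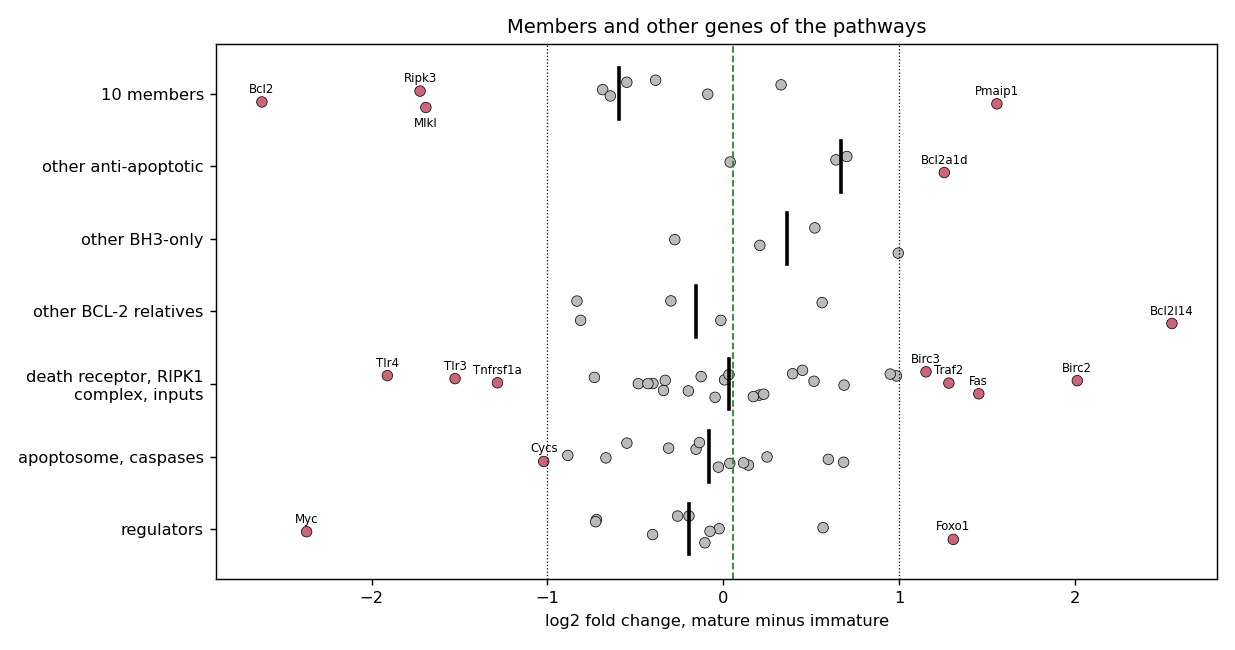
Log2 fold change, mature minus immature, of the 10 members and of the tested genes in 6 lists of related genes, 1 point per gene with random vertical spread. Red points met both criteria, grey points did not, black bars are the median of a list, dotted lines mark the fold criterion and the dashed green line is the median of all genes tested, 0.05. The median of the members is -0.60 and that of the other anti-apoptotic genes 0.67.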

How the data were processed

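RNA of immature and mature BMDCs was sequenced from both ends with reads of 150 bases. For each gene and library, the authors deposited a raw count and an FPKM value rounded to hundredths. Per the labels, processing involved cutadapt 1.9, HISAT2 2.2.1, StringTie 2.1.6, DESeq2 and edgeR, named without roles. The labels name the build mm9, whereas 90.3% of gene coordinates equal those of GENCODE M21, so GRCm38 is given here. The library kit marks strand, and how strand was used in counting is not given in the sources used here.

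Counts of all 7 libraries were tested in R 4.3.3 with edgeR 4.0.16 (filter on low counts, TMM, quasi-likelihood test, Benjamini-Hochberg adjustment over 17461 genes, two-sided). Standard errors were derived from the log2 fold change and the F statistic. The 95% intervals used these and the total degrees of freedom, residual plus prior, of the quasi-likelihood test. CPM of replicates was compared by range. Differences were described for ratios and lists, with no test. Counts of 54846746 to 67973086 per library bear on counting error alone. The members and gene lists were chosen with earlier results of these data known. Genes of a list are named where they met the criteria with a mean of at least 1 FPKM in the higher group, at most 6 a list. Marker genes were likewise chosen with earlier results of these data known, and were counted whether or not they met the criteria. Those of cardiac muscle were chosen because of an earlier report. Alternatives were DESeq2 1.42.0, other scalings and filters, limma 3.58.1 on log2 FPKM with pseudocounts of 1 and 0.1, the adjusted p alone, each library left out, and the replicate number as a block. Fits without mature replicates 1 and 3, and without 2, 3 and 4, were added after seeing the data. The fitting was tested on simulated data. Motifs were chosen after the values were seen, and RefSeq start sites nearest the deposited gene start were used for 9 members. A check for libraries deposited more than once found none that differed by as little as sampling noise (median chi-square per gene 3.83 to 25.6 within groups), which does not show that they are independent. Python 3.11.15, pandas 2.3.3, numpy 2.4.6 and matplotlib 3.10.9 were used for summaries and figures.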

Additional observations from a re-analysis of the deposited data

Results flagged for a closer look

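In the 21 genes named above by rule, 3 had a single mature library far from the other mature ones relative to the range of the group, and in all 3 it was mature replicate 3. Chance gives such a gap in about 5% of groups tested. Bax was at 165 CPM in mature replicate 3 against 88.6 to 94.0 in the other mature libraries, a gap of 0.930 of the range. Ripk1 was at 66.4 CPM against 81.8 to 84.9, a gap of 0.832, and Foxo1 at 41.8 CPM against 49.8 to 51.2, a gap of 0.856. Across the 10 members, the log2 ratio of that library to the average of replicates 1, 2 and 4 ran from -0.33 for Bcl2l11 and -0.33 for Ripk1 to 0.84 for Bax. It had a Spearman correlation of -0.685 with the length implied by counts and FPKM, 1710 bases for Bax to 9940 for Bcl2 (10 genes that share these libraries, a description with no p). The part of transcript length in these gaps was not tested further.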

How the results depend on the processing

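The members past the criteria were 4 in all alternatives but 2, at 9 without the fold criterion and 5 with mature replicate 1 as the sole mature library (assumed to vary like the immature ones), where Bcl2l1 joined. The count over all genes, 4037, was 2665 with edgeR on genes of at least 1 FPKM in 3 libraries, 1768 with limma on log2(FPKM + 1), 2561 with a pseudocount of 0.1, 1716 with limma without the filter and 8053 by adjusted p alone. It was 3646 to 4052 leaving out each library. Listed genes were 12, 11 to 15 leaving out each library and 37 by adjusted p alone. Bax turned from -0.09 to 0.000564 with library totals alone and 0.0084 without mature replicate 2, with adjusted p of 0.998 and 0.98, and the cause was not tested. Leaving out each library gave Bax -0.33 to 0.0084. The other 9 members kept their direction in all 18 alternatives. Scaling by library totals moved the median of all genes from 0.05 to 0.16, under which Bcl2, Ripk3, Mlkl and Pmaip1 kept their calls. Same-numbered libraries deviated from their group means with correlations of -0.00114 to 0.0285, so the numbers were not taken to pair samples. With the replicate block, 3616 genes, 4 members and 13 listed genes passed, and Mcl1 had an adjusted p of 0.0614. Immature replicates 1 and 3 correlated best with their own number and replicate 2 did not. FPKM ratios give no counting error, and the depth limits Bcl2 most.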
